A study of Rattus norvegicus with 2 samples.

Results

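The genes described here encode the subunits of the oxidative phosphorylation complexes that are read from nuclear DNA, together with the inhibitor protein and gene copies that share their names. They were chosen by symbol alone: a probe set had to carry exactly 1 gene symbol that begins as the subunit names of a complex do. For complex I these were Ndufa, Ndufb, Ndufc, Ndufs or Ndufv followed by a digit. For the others they were Sdha to Sdhd (complex II), Uqcr and Cyc1 (complex III), Cox4 to Cox8 (complex IV) and Atp5 (complex V). This gave 97 probe sets and 91 genes of the 18166 named genes on the array, with 39 genes in complex I, 4 in complex II, 10 in complex III, 18 in complex IV and 20 in complex V. Where a gene had more than 1 probe set, as 5 did, the brightest by mean of the arrays stood for it. Of the genes, 16 were not the subunit gene itself but a copy of it, and they are given apart: RefSeq lists 5 as pseudogenes and 1 as a long noncoding RNA, and 10 as protein-coding duplicates.

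The samples were 1 SMiN culture (small molecule-induced neurons) and 1 culture of undifferentiated C6 glioma, a rat glioma cell line. SMiNs were C6 glioma kept for 35 days with 20 μM CHIR99021, an inhibitor of the kinase GSK3, and 100 μM forskolin, an activator of adenylyl cyclase that raises cAMP. C6 glioma was grown in DMEM with 10% FBS. By the methods of the study, SMiNs were instead grown on Matrigel in serum-free neural medium with growth factors, so the molecules, the medium, the coating and the time differ together and cannot be told apart. The sample labels give the treatment and the serum medium for both cultures, and the groups here follow the sample titles. RNA was read on Affymetrix arrays that cover whole transcripts, and the values are log2 signals per probe set. With 1 array per group there is no replicate, no error and no test, and every difference below (SMiN minus C6 glioma) describes this pair of arrays. In RNA from whole cultures, a shift in the mix of cells and a shift of RNA within cells cannot be told apart.

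Oxidative phosphorylation takes place in the inner mitochondrial membrane. Complex I takes electrons from NADH and complex II from succinate, ubiquinone carries them to complex III, and cytochrome c carries them to complex IV, which reduces oxygen. Complexes I, III and IV pump protons, and complex V, the ATP synthase, lets them flow back through its ring of c subunits and makes ATP. Called catalytic here are a few subunits that bind the cofactors or substrates, with the core subunit Ndufs3 and every subunit of complex II. No measured gene of complex IV is among them. The many others are called accessory, and most of them hold the complex together, stabilise it or regulate it. Ndufa9, Atp5f1d and the c ring genes are counted as accessory. Neurons depend heavily on this pathway, whereas glioma cells in culture often make much of their ATP by glycolysis.

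Promoters are shown first, because the promoters of these genes are known to carry sites for a small set of regulators. Of the 75 genes that are not copies, 66 had a promoter in the RefSeq table for rat assembly GRCr8, as 300 bases from 250 before to 50 after the start of the gene. The letters GCGCANGCG, as bound by NRF1, a factor named nuclear respiratory factor, were present on either strand in 16 of the 66 promoters (24.2%), in 9.20% of the 14502 promoters of named genes on the array and in 6.26% of all 27457 promoters. The named genes include those below background in these cells, and no share was computed without them. Of the 16, 4 promoters are shown 5′ to 3′ on the strand of the gene. They are 3 of genes that were higher in SMiNs and that of Sdha, which was lower. Capitals mark the NRF1 letters on either strand and, in Ndufa6, also the letters AAGATGGCG, as bound by YY1.
Ndufa6: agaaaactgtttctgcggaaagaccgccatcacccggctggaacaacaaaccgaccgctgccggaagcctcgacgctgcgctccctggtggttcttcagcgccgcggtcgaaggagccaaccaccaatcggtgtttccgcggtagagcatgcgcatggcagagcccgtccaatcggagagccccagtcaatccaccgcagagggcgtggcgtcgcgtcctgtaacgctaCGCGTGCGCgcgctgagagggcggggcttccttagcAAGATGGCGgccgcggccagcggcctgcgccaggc
Atp5me: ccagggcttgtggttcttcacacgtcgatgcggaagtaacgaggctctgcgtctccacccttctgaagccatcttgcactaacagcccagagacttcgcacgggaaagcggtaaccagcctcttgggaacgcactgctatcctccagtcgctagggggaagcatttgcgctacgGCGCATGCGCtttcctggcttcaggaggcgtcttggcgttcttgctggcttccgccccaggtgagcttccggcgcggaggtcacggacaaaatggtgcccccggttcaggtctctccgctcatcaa
Atp5po: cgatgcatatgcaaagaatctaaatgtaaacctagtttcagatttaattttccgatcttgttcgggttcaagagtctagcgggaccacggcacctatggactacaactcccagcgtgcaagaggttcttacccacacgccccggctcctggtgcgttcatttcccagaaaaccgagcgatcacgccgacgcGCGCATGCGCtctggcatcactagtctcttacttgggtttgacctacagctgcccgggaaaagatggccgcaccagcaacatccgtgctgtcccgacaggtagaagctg
Sdha: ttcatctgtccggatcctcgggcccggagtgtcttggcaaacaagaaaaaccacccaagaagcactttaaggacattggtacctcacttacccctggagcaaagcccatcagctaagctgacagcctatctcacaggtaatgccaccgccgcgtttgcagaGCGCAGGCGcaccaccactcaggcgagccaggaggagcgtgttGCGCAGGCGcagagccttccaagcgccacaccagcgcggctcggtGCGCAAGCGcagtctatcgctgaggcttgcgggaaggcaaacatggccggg
The windows lie at chr7:115750268-115750567 (minus strand) for Ndufa6, chr14:1464610-1464909 (plus strand) for Atp5me, chr11:44657434-44657733 (minus strand) for Atp5po and chr1:30764303-30764602 (plus strand) for Sdha. In Atp5me and Atp5po the capital run reads the same on both strands and so holds 2 overlapping matches. In Sdha there were 3 separate matches.

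The arrays had similar overall levels. The median over all 36685 probe sets was 4.85 in the SMiN array and 4.79 in the C6 glioma array. Receptor genes for odours and pheromones, which these cells are not known to use, gave a background floor on each array (the 95th percentile of 1360 such probe sets), at 4.89 in SMiNs and 4.79 in C6 glioma. Values identical on the 2 arrays were found for 7312 of all probe sets (19.9%) and for 8 of the 91 genes (8.79%). The glioma markers used by the study were lower in SMiNs or equal: Pdgfra was 6.13 in SMiNs and 10.18 in C6 glioma, Mki67, which marks dividing cells, 9.07 and 10.36, and Olig2 was 5.29 on both. The neuron marker Tubb3 was 6.44 in SMiNs and 5.28 in C6 glioma, while Map2 was 8.58 and 8.44. Of markers of other cells, 1 of 5 measured astrocyte genes (Slc1a2, at least 6.16-fold) was at least 2-fold higher in SMiNs. The astrocyte gene S100b was 1.72-fold higher, Gfap was 1.48-fold lower, and Aqp4 and Slc1a3 were below the floor on both arrays. Among microglia genes, 5 of 6 were below the floor on both arrays. None of 6 fibroblast genes was 2-fold higher, and 2 were 2-fold lower (Col1a1, 4.76-fold, and Pdgfrb, 5.39-fold). The part of these markers in the results below was not tested.

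More of the 91 genes had a higher signal in SMiNs than in C6 glioma. The signal was higher for 63 genes, lower for 20 and equal for 8, with a median difference of 0.57 and a range of -1.27 to 1.78. At least 2-fold higher were 29 of the 91 genes (31.9%), where 4.27% of all named genes were that much higher. At least 2-fold lower were 2 of the 91 (2.20%), where 8.12% of all named genes were that much lower. With values below the floor raised to it, 27 were 2-fold higher and 1 was 2-fold lower, since the copies Uqcr10-ps1, Uqcr11l1 and Atp5mc1l1 then have only smaller bounds. At a limit of 1.5-fold, 45 were higher and 8 lower, against 11.3% and 16.7% of all named genes. The median difference over all named genes was 0.00.

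Many named genes are not above background in these cells, while 82 of the 91 reached the floor on 1 array or both. Among the 11306 named genes that did so, 5.75% were higher by 2-fold or more in SMiNs and 12.9% lower by as much, and the median difference was -0.08. Among the 11675 genes whose mean signal lay between 4.58 and 9.94, the 10th and 90th percentiles of the 91 genes, 5.13% were 2-fold higher and 12.3% 2-fold lower. Without the 16 copies, 26 of 75 genes were 2-fold higher and 1 was 2-fold lower, with a median of 0.42. The complexes differed from each other: the median was 0.71 in complex I, -0.48 in complex II, 0.83 in complex III, 0.07 in complex IV and 0.70 in complex V.

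**Figure D1:**
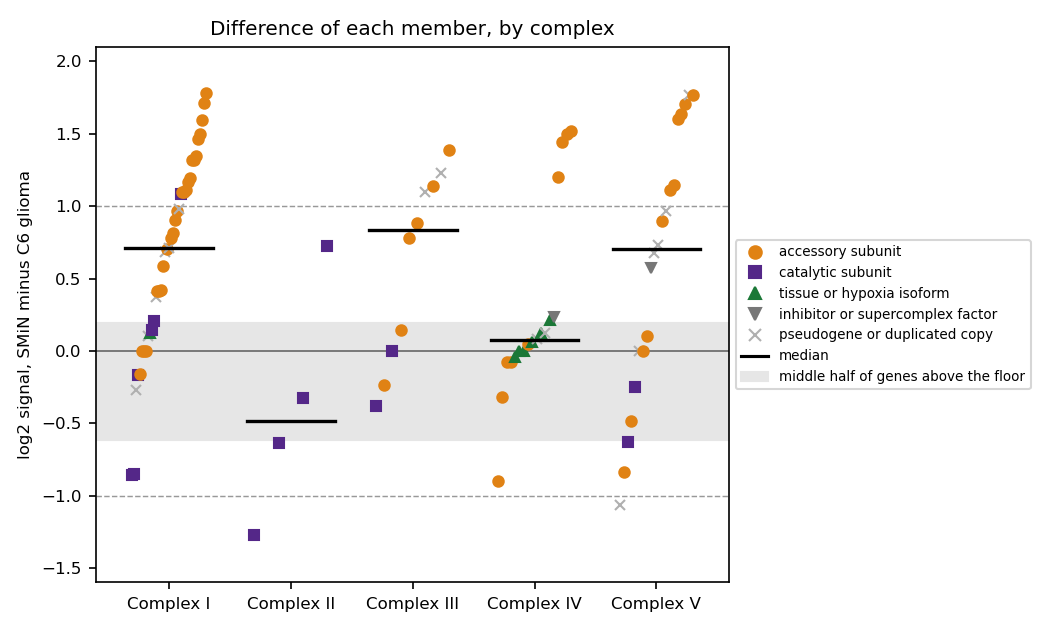
Log2 difference (SMiN minus C6 glioma) of each gene, in 1 column per complex, with 1 symbol per gene by kind of subunit, a black bar at the median, dashed lines at 2-fold and a grey band over the middle 50% of named genes above the floor (-0.61 to 0.19). Complexes I, III and V have medians of 0.71, 0.83 and 0.70, complex IV has 0.07 and complex II -0.48.

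Within the complexes, the catalytic subunits did not share the direction of the accessory ones. Of the 14 catalytic subunits measured, 4 were higher in SMiNs, 9 lower and 1 equal, with a median difference of -0.29, and 1 was 2-fold higher and 1 was 2-fold lower. Of the 52 accessory subunits, 40 were higher, 8 lower and 4 equal, with a median of 0.94, and 25 were 2-fold higher and none 2-fold lower. Among the 11306 named genes that reached the floor, 3820 were higher and 6122 lower, with a median of -0.08. Of these genes 5.75% were 2-fold higher and 12.9% were 2-fold lower. The catalytic counts thus lay nearer to those of named genes than the accessory counts did. The medians differed by -1.22 (catalytic minus accessory), and the 25 accessory subunits that were 2-fold higher all lay above every catalytic subunit. Leaving out complex II, which has no accessory subunits, the median of the 10 other catalytic subunits was -0.21. This split was made after the values had been seen and has no test. The subunits Ndufa3, Ndufa10, Ndufa13, Ndufb1, Uqcr10, Cox7a1, Cox7a2, Atp5f1c, Atp5f1e and Atp5mc2 had no probe set with their symbol alone and were not analysed here, nor were the subunits encoded in mitochondrial DNA. Ndufab1, the mitochondrial acyl carrier protein and also a complex I subunit, falls outside the symbol rule and is not in these counts. It was 6.72 in SMiNs and 7.05 in C6 glioma (1.26-fold lower).

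Complex I, the largest of the complexes, had many genes with a higher signal. In SMiNs, 14 of its 39 genes had a signal 2-fold or more above that in C6 glioma and none was 2-fold lower, and of its 26 accessory subunits 13 were 2-fold higher, with a median of 1.03. These counts follow the symbols and so include Ndufa4, described below. Of all named genes 4.27% were 2-fold higher and 8.12% were 2-fold lower, and these shares also stand beside the counts of the other complexes. Its L-shape has an arm in the matrix, where NADH is oxidised, and an arm in the membrane, which pumps protons. The 9 accessory subunits of the matrix arm had a median difference of 1.17 and 5 were 2-fold higher. The 16 accessory subunits of the membrane arm had a median of 0.89, with 13 higher, 3 equal and 7 of them 2-fold higher.

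In the matrix arm, Ndufa6, a subunit of the LYR family that binds the mitochondrial acyl carrier protein, had the largest difference of all 91 genes. Its signal was 8.69 in SMiNs and 6.90 in C6 glioma (3.44-fold). Ndufa2, a small subunit with a thioredoxin-like fold, was 7.64 in SMiNs and 6.17 in C6 glioma (2.76-fold). Ndufa5 was 9.06 in SMiNs and 7.71 in C6 glioma (2.55-fold). All 3 sit around the cofactor-carrying core. Ndufa7 was 9.38 in SMiNs and 8.06 in C6 glioma (2.50-fold). Ndufv3, a small subunit of the NADH-oxidising tip, was 7.34 in SMiNs and 6.17 in C6 glioma (2.25-fold), but its other probe set was 6.71 on both arrays. Ndufv3 thus rests on which probe set is read. Ndufa12 was 10.42 in SMiNs and 9.51 in C6 glioma (1.87-fold). Ndufs4, needed for a stable NADH-oxidising tip, was 9.10 in SMiNs and 8.39 in C6 glioma, and Ndufs6, a zinc-binding subunit, 6.99 and 6.40. Ndufa9, which binds NADPH, was the matrix arm accessory subunit with a lower signal, 8.63 in SMiNs and 8.79 in C6 glioma.

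The catalytic subunits in the same arm went in both directions. Ndufv2, an iron-sulfur subunit of the NADH-oxidising tip, was the only catalytic subunit of any complex that was 2-fold higher, at 9.96 in SMiNs and 8.87 in C6 glioma (2.12-fold). Its partner Ndufv1, which binds NADH and the flavin that takes its electrons, was 6.76 in SMiNs and 7.62 in C6 glioma (1.81-fold lower). The pair thus differed in opposite directions. Ndufs7, which carries the last iron-sulfur cluster before ubiquinone, was 7.52 in SMiNs and 8.37 in C6 glioma (1.80-fold lower). Ndufs8, which carries the clusters before it, was 7.64 in SMiNs and 7.80 in C6 glioma, a difference of -0.16 that turned to 0.06 when the arrays were quantile normalised. Ndufs1, the iron-sulfur subunit of the tip, was 8.25 in SMiNs and 8.04 in C6 glioma, and Ndufs3, a core subunit without a redox centre, 6.53 and 6.38. These last 3 differed by at most 0.21 in size.

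In the membrane arm, Ndufa1, a short subunit with 1 membrane helix, was 7.66 in SMiNs and 5.95 in C6 glioma (3.28-fold). Ndufs5, on the side of the intermembrane space, was 9.72 in SMiNs and 8.13 in C6 glioma (3.02-fold). Ndufb3 was 9.89 in SMiNs and 8.39 in C6 glioma (2.82-fold). These 3 led the arm. Ndufc2 was 10.63 in SMiNs and 9.32 in C6 glioma (2.49-fold), and Ndufb4 was 9.00 and 7.81 (2.29-fold). Ndufb7 was 8.09 in SMiNs and 6.99 in C6 glioma (2.14-fold), and Ndufa8 was 9.86 and 8.77 (2.14-fold), both of them proteins of the intermembrane space with paired cysteines. Below the 2-fold limit the arm held Ndufb10 at 7.58 in SMiNs and 6.61 in C6 glioma, Ndufb9 at 10.80 and 9.98, and Ndufb8 at 7.84 and 7.06. The differences of Ndufa11, Ndufb11 and Ndufb5 were smaller still, between 0.41 and 0.42. Ndufb2, Ndufb6 and Ndufc1 had the same deposited value on both arrays (7.60, 7.47 and 6.59). When the arrays were quantile normalised, they differed by 0.22, 0.23 and 0.20.

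Ndufa4 carries a complex I name but is now placed in complex IV. It was 10.95 in SMiNs and 9.84 in C6 glioma (2.16-fold). Its relative Ndufa4l2, known to be induced by low oxygen, was below the floor on both arrays, at 4.52 in SMiNs and 4.39 in C6 glioma. The 2 genes thus differed in whether they were measured above background at all.

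**Figure D2:**
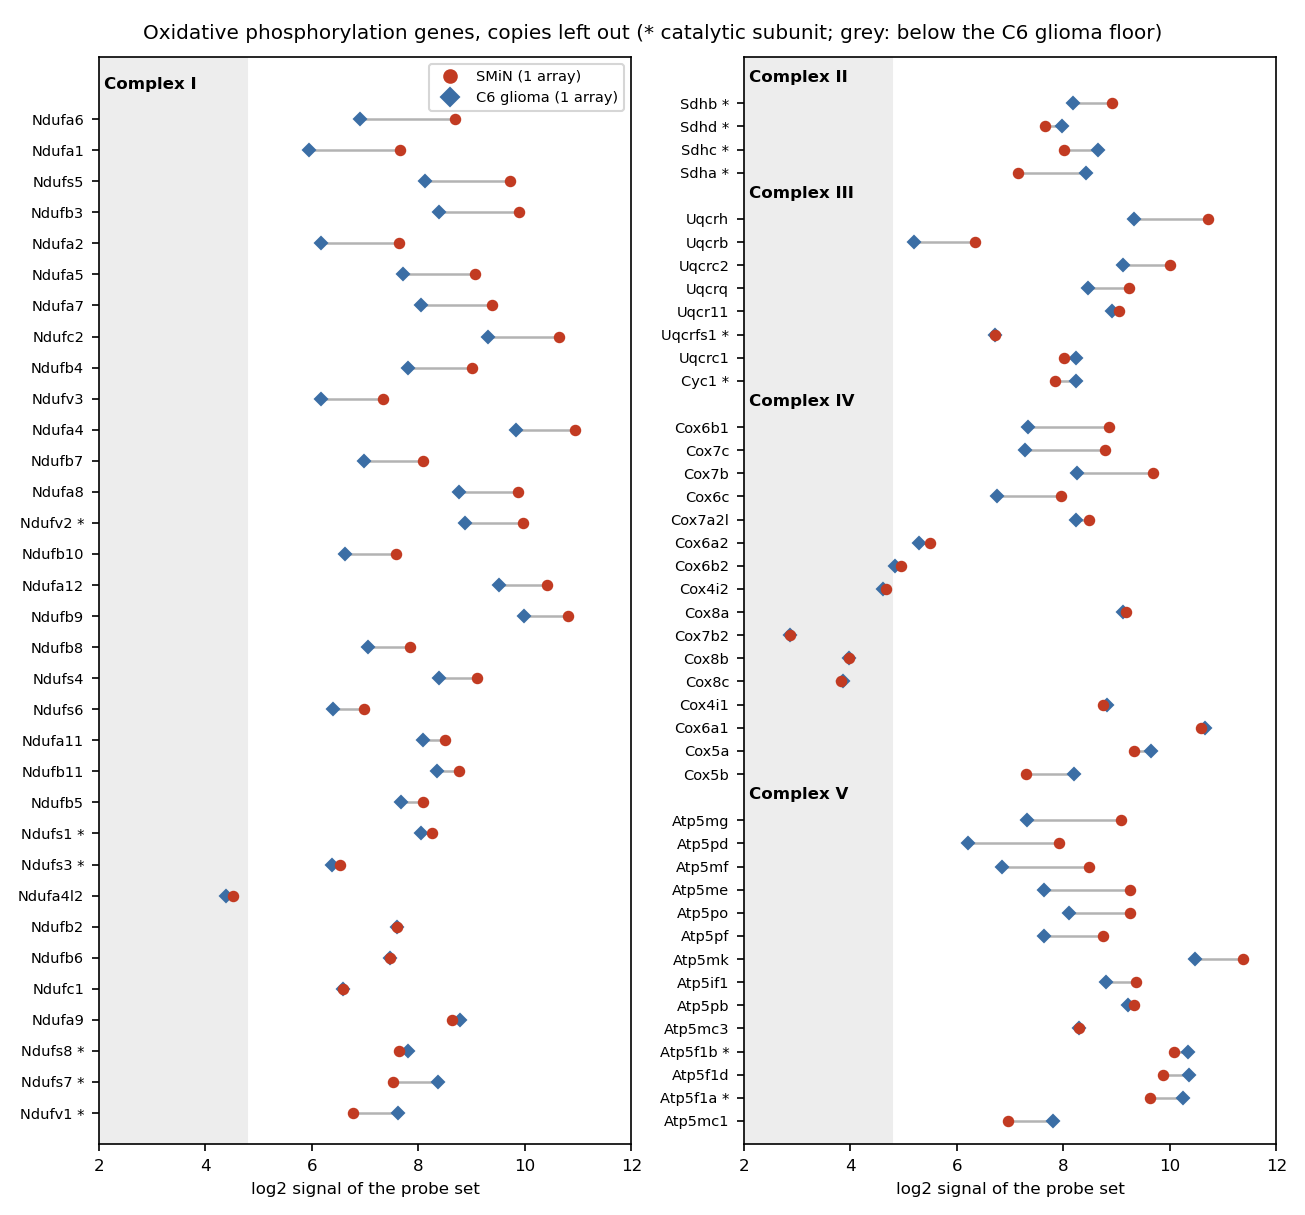
Log2 signal of the subunit genes without copies in SMiNs and C6 glioma, 1 row per gene grouped by complex, with a line joining the 2 arrays of each gene an asterisk on catalytic subunits and grey below the C6 glioma floor of 4.79. Ndufa6, Atp5mg, Ndufa1 and Atp5pd have the longest lines to the SMiN side and Sdha the longest to the C6 glioma side.

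Complex II, succinate dehydrogenase, is also an enzyme of the TCA cycle, and it was the complex with a negative median. Sdha, the flavoprotein that oxidises succinate, was 7.15 in SMiNs and 8.42 in C6 glioma (2.41-fold lower), the only gene of the 75 without copies that was 2-fold lower. Sdhb, the iron-sulfur subunit bound to it, was 8.92 in SMiNs and 8.19 in C6 glioma (1.65-fold higher). The catalytic head thus held a gene in each direction. The membrane anchors Sdhc, at 8.01 in SMiNs and 8.64 in C6 glioma (1.56-fold lower), and Sdhd, at 7.65 and 7.98 (1.25-fold lower), both had lower signals. With 4 genes, the median of -0.48 became -0.28 under quantile normalisation.

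In complex III, 5 of the 6 accessory subunits were higher and, in the deposited values, neither of the electron-carrying ones was. Uqcrh, the acidic hinge protein that helps cytochrome c1 meet cytochrome c, was 10.71 in SMiNs and 9.32 in C6 glioma (2.62-fold). Uqcrb, close to the ubiquinone site, was 6.34 in SMiNs and 5.20 in C6 glioma (2.20-fold). Uqcrc2, a large core protein, was 10.01 in SMiNs and 9.13 in C6 glioma (1.85-fold). Its partner core protein Uqcrc1 had a slightly lower signal in SMiNs, 8.01 against 8.24. Uqcrq was 9.24 in SMiNs and 8.46 in C6 glioma, and Uqcr11 was 9.05 and 8.91. Of the 2 electron carriers, Cyc1 (cytochrome c1) was 7.85 in SMiNs and 8.23 in C6 glioma (1.30-fold lower), and the Rieske protein Uqcrfs1 was 6.71 on both arrays. When the arrays were quantile normalised, Cyc1 differed by -0.17 and Uqcrfs1 by 0.21. The median of the complex, 0.83, was 0.46 without its 2 copies.

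In complex IV, 4 small subunits stood apart from the rest. Cox6b1, which faces the intermembrane space where cytochrome c docks, was 8.86 in SMiNs and 7.34 in C6 glioma (2.86-fold), while its second probe set was below the floor on both arrays. Cox7c was 8.78 in SMiNs and 7.28 in C6 glioma (2.83-fold), and Cox7b was 9.69 and 8.25 (2.71-fold). Cox6c was 7.95 in SMiNs and 6.75 in C6 glioma (2.30-fold). The other 5 ubiquitous subunits had small or negative differences. Cox8a was 9.18 in SMiNs and 9.13 in C6 glioma, a difference that turned negative when the arrays were centred on their medians. Cox4i1, the subunit through which ATP regulates the enzyme, was 8.74 in SMiNs and 8.81 in C6 glioma, a difference that turned positive under quantile normalisation, and Cox6a1 was 10.58 and 10.66. Cox5a was 9.33 in SMiNs and 9.65 in C6 glioma, and Cox5b, a zinc-binding subunit, was 7.31 and 8.21 (1.86-fold lower). The 9 ubiquitous subunits thus had a median of 0.05, with 4 genes 2-fold higher and the rest near zero or lower. The catalytic core of complex IV is encoded in the mitochondrial genome and was not analysed here.

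Complex IV is also the one whose subunits have tissue isoforms. Cox4i2, known from lung and low oxygen, was below the floor on both arrays, and so were Cox7b2, Cox8b and Cox8c. Cox6a2, the heart and skeletal muscle isoform, was 5.50 in SMiNs and 5.28 in C6 glioma, and Cox6b2, the testis isoform, was 4.96 and 4.84, both near the floor. Of 6 measured muscle markers, 5 were higher in SMiNs and 1 lower, and Myh6 and Myh7 were below the floor on both arrays. Tnnt2 was 6.44 in SMiNs and 5.71 in C6 glioma, Ckm was 6.04 and 5.60, Acta1 was 5.32 and 4.87, and Mb was 5.11 in SMiNs and under the floor in C6 glioma. The part of these markers in the Cox6a2 values was not tested. The 7 isoform genes of complexes I and IV had a median of 0.06 and none differed by 1.5-fold. Cox7a2l, which tethers complex III to complex IV in supercomplexes, was 8.48 in SMiNs and 8.24 in C6 glioma.

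In complex V, the direction differed with the position of the subunit. The ATP synthase consists of the F1 head, where ATP is made, a peripheral stalk that holds the head still, and a membrane part with the c ring that protons turn. Apart from the c ring, all 8 measured subunits of the peripheral stalk and membrane part were higher in SMiNs, 6 of them at least 2-fold, with a median of 1.37. All 3 measured F1 subunits were lower, with a median of -0.49. Atp5mg (subunit g) was 9.09 in SMiNs and 7.32 in C6 glioma (3.41-fold). Atp5mf (subunit f) was 8.48 in SMiNs and 6.84 in C6 glioma (3.11-fold), and Atp5me (subunit e) was 9.25 and 7.64 (3.04-fold). These 3 lie where 2 ATP synthases meet as a dimer. In the stalk, Atp5pd (subunit d) was 7.92 in SMiNs and 6.22 in C6 glioma (3.26-fold). Atp5po, the OSCP that joins the stalk to the head, was 9.26 in SMiNs and 8.11 in C6 glioma (2.21-fold). Atp5pf (coupling factor 6) was 8.75 in SMiNs and 7.64 in C6 glioma (2.16-fold). Atp5pb (subunit b), the long helix of the stalk, was 9.33 in SMiNs and 9.22 in C6 glioma, so the stalk subunits did not differ by one amount. Atp5mk, a small membrane subunit, was 11.37 in SMiNs and 10.48 in C6 glioma (1.86-fold), and its second probe set differed by 1.13.

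The head and the ring ran the other way or not at all. Atp5f1a (subunit alpha) was 9.63 in SMiNs and 10.26 in C6 glioma (1.54-fold lower). Atp5f1b (subunit beta), which holds the catalytic sites, was 10.08 in SMiNs and 10.34 in C6 glioma (1.19-fold lower), and Atp5f1d (subunit delta of the central stalk) was 9.88 and 10.36 (1.40-fold lower). These 3 subunits form part of the rotary head. Atp5mc1 and Atp5mc3 encode the same mature c subunit with different import signals. Atp5mc1 was 6.97 in SMiNs and 7.81 in C6 glioma (1.79-fold lower), and Atp5mc3 was 8.29 on both arrays. Under quantile normalisation they differed by -0.61 and 0.18. Atp5if1, the inhibitor that stops the enzyme from running backwards, was 9.37 in SMiNs and 8.80 in C6 glioma (1.49-fold).

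**Figure D3:**
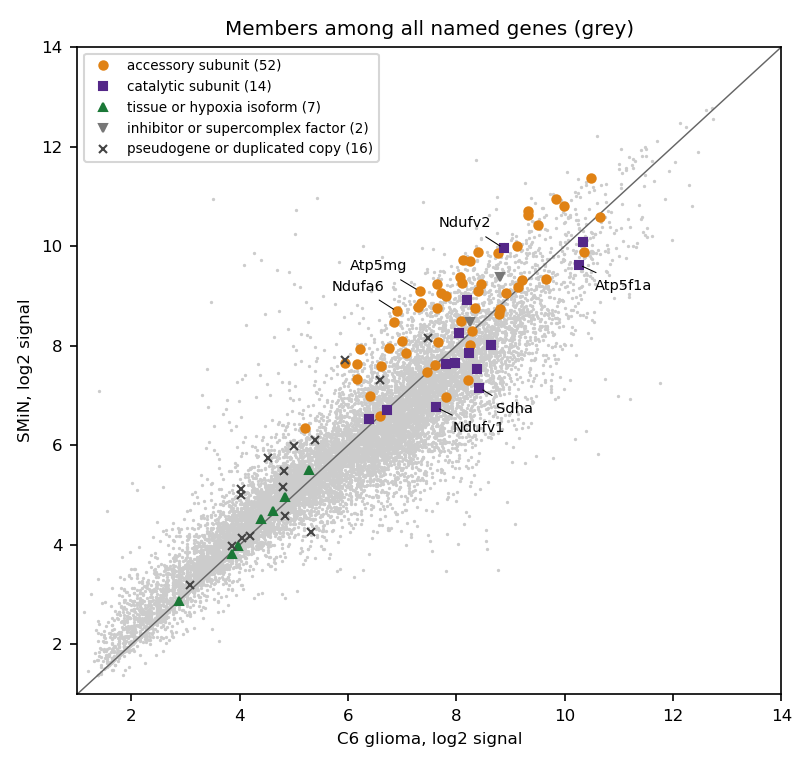
Log2 signal in SMiNs (vertical axis) against C6 glioma (horizontal axis), with all named genes in grey, the 91 genes marked by kind and a line at equality. Accessory subunits lie mostly above the line (40 of 52 higher in SMiNs) and catalytic ones mostly below it (9 of 14 lower). Of the 11306 named genes that reached the floor, 3820 were higher and 6122 lower.

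The 16 copies carry the names of duplicates of subunit genes, and whether their probes also read the parent gene's RNA was not tested, so their values are uncertain. Of these, 13 were higher in SMiNs, 1 of them (Atp5mgl3) at least 2-fold with both arrays above the floor, 2 were lower and 1 was equal, with a median of 0.68. Atp5mgl3, a copy of Atp5mg, was 7.72 in SMiNs and 5.95 in C6 glioma (3.41-fold), the same fold as Atp5mg itself. Uqcr10-ps1 was 5.74 in SMiNs and under the floor in C6 glioma (at least 1.94-fold), and Uqcr11l1 likewise at 5.13 (at least 1.26-fold). The complex I copies Ndufb4l3, Ndufa13-ps1 and Ndufs6-ps1 had differences of 0.98, 0.71 and 0.68. Atp5mc1l1 was under the floor in SMiNs and 5.32 in C6 glioma (at least 1.35-fold lower). Another 4 copies were below the floor on both arrays.

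The genes whose promoters held the NRF1 letters did not all go one way. The 16 genes with the NRF1 letters had a median difference of 1.06, and those without them 0.18, but the 16 ran between -1.27 and 1.78 and included the lowest (Sdha) and the highest (Ndufa6) of all genes without copies. By kind, 14 of 45 accessory subunits with a promoter had the letters and 1 of 13 catalytic ones. The YY1 letters AAGATGGCG, which hold the bases ATG of a start codon, were in 10 of 66 promoters (15.2%), against 2.54% of named-gene promoters, with medians of 0.74 with and 0.32 without them. The letters CCGGAAGTG (ETS factors such as GABP), TNAAGGTCA (estrogen-related receptors) and TGACGTCA (CREB) were each in 3 promoters (4.55%), against 2.98%, 0.779% and 2.42% of named-gene promoters. The 3 with the CREB letters were Sdhb, Cox8a and Ndufb2. A match of letters is not a bound site, and 30 of the 66 promoters held any of the 5 sets of letters in this window. The named-gene shares again include genes below the floor.

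The genes that build, feed and regulate the complexes were measured on the same arrays. Of 46 assembly factors, which insert cofactors and join subunits but are not part of the finished complexes, 3 were 2-fold higher in SMiNs and 4 were 2-fold lower, with a median of 0.00. Cox17, the copper chaperone of complex IV, was 9.53 in SMiNs and 6.93 in C6 glioma (6.04-fold), a larger difference than any subunit had. Tmem126b, of the complex I assembly factors, was 6.43 in SMiNs and 5.01 in C6 glioma (2.67-fold), while Ndufaf3 was 5.69 and 7.14 (2.74-fold lower). The counts of assembly factors are near the shares of all named genes, 4.27% 2-fold higher and 8.12% 2-fold lower. The same shares stand beside the counts of the lists below. Counts are of the measured genes, which for several lists were fewer than those listed (46 of 56 assembly factors). Of 18 genes of electron carriers and coenzyme Q synthesis, Ndufab1 among them, 2 were 2-fold higher, none was 2-fold lower and the median was -0.05. Cycs, which encodes cytochrome c, was 9.81 in SMiNs and 8.59 in C6 glioma (2.34-fold), and Coq10b, a coenzyme Q-binding protein, was 8.40 and 6.95 (2.74-fold).

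Enzymes of the TCA cycle, which supply electrons, and of glycolysis had mostly lower signals. Of 15 genes of the TCA cycle and pyruvate dehydrogenase, 13 were lower in SMiNs and 2 higher, with a median of -0.65, and among the 11306 named genes that reached the floor 6122 were lower. Idh3a, the catalytic subunit of NAD-dependent isocitrate dehydrogenase, was 7.34 in SMiNs and 8.82 in C6 glioma (2.78-fold lower). Cs (citrate synthase) was 8.19 in SMiNs and 9.16 in C6 glioma (1.96-fold lower). The 2 higher genes were Sucla2, a subunit of succinyl-CoA synthetase (2.03-fold higher), and Dld, a subunit shared by several dehydrogenase complexes (1.80-fold higher). Of 17 glycolysis genes listed, 11 were measured, of which 10 were lower and 1 higher, with a median of -0.46. The same 6122 of 11306 named genes stand beside this count. Pfkp was 7.07 in SMiNs and 8.43 in C6 glioma (2.57-fold lower), and Pgk1 was 9.02 and 10.28 (2.40-fold lower). Carriers of adenine nucleotides, phosphate, protons and small ions went both ways. Of 12 such genes, 4 were higher, 5 lower and 3 equal, with a median of 0.00. None was 2-fold higher, and Vdac3, a pore of the outer membrane, was 10.57 in SMiNs and 9.84 in C6 glioma (1.66-fold). The 2-fold lower genes were 2: Slc25a4, which exchanges ADP for ATP, was 8.39 in SMiNs and 9.64 in C6 glioma (2.37-fold lower), and Vdac2, another such pore, was 6.25 and 7.33 (2.12-fold lower).

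Of 22 regulators of mitochondrial biogenesis, 10 were higher and 10 lower, with a median of 0.00, and 1 was 2-fold higher and 1 was 2-fold lower. Mterf1, which binds mitochondrial DNA, was 7.30 in SMiNs and 6.21 in C6 glioma (2.12-fold), and the nuclear receptor Esrrg was at least 2.23-fold lower in SMiNs. The coactivator Pprc1 was 5.85 in SMiNs and 6.85 in C6 glioma. The factors best known for these promoters had smaller differences. Nrf1 was 6.03 in SMiNs and 6.46 in C6 glioma, Gabpa was 7.51 and 7.96, and Yy1 was 7.35 and 7.58. Tfam, which packages mitochondrial DNA, was 6.76 in SMiNs and 6.39 in C6 glioma, and the coactivator Ppargc1a was below the floor on both arrays. None of these 5 differed by 1.5-fold above the floor. Of 22 genes of mitochondrial protein import, 3 were 2-fold higher and 2 were 2-fold lower, with a median of -0.11. The small import proteins Tomm7, at 9.36 in SMiNs and 7.57 in C6 glioma (3.47-fold), and Timm8b, at 9.72 and 8.15 (2.98-fold), were the highest of these by difference, and the matrix chaperone Hspa9, at 9.51 and 10.77 (2.40-fold lower), the lowest.

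Mitochondrial ribosomal proteins make the subunits encoded in mitochondrial DNA. Of 72 such genes, 11 were 2-fold higher in SMiNs and 6 were 2-fold lower, and the median was 0.00. By 1.5-fold, 24 were higher and 11 lower. Of all named genes, 4.27% were 2-fold higher and 8.12% were 2-fold lower, and by 1.5-fold 11.3% were higher and 16.7% lower. Cytosolic ribosomal proteins, a list added after values had been seen, had 8 of 55 genes 2-fold higher and 5 that were 2-fold lower, with a median of 0.44. Beside these, accessory subunits had 25 of 52 genes 2-fold higher and a median of 0.94. No test sets these lists against each other.

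**Figure D4:**
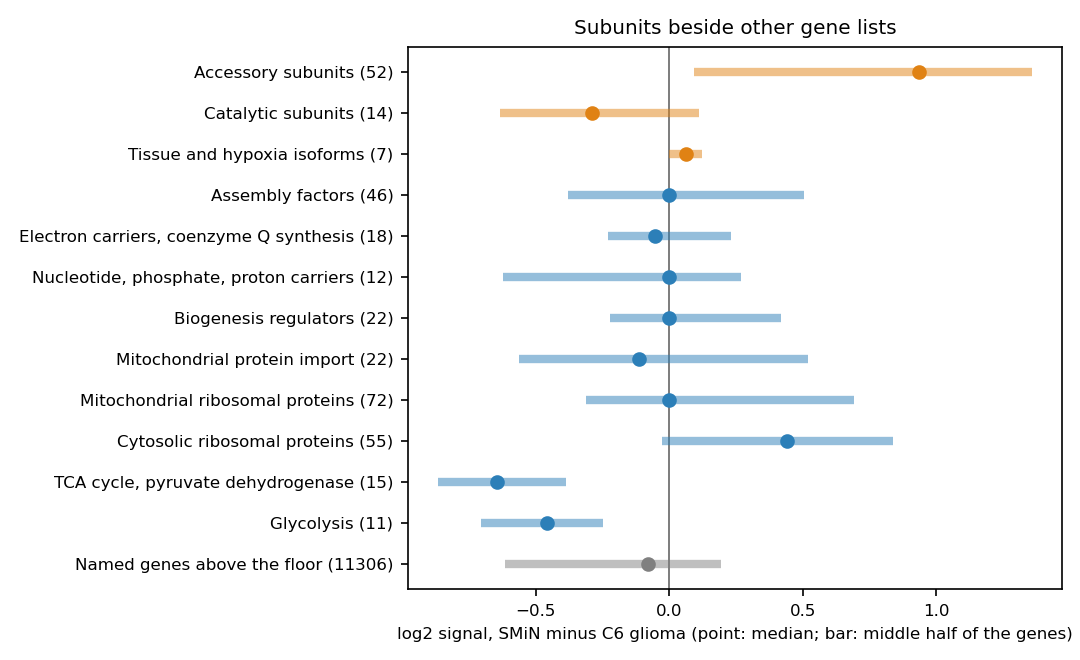
Log2 difference (SMiN minus C6 glioma) by list, 1 row per list with its number of genes, a point at the median and a bar over the middle 50% of its genes. The accessory subunits have a median of 0.94, the cytosolic ribosomal proteins 0.44, the catalytic subunits -0.29, and the TCA cycle and pyruvate dehydrogenase genes -0.65.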

How the data were processed

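Total RNA of the 2 cultures was labeled with a whole-transcript kit, hybridised to Affymetrix rat arrays and read with Affymetrix Command Console software. Per probe set, the deposited value is a log2 signal. How the authors summarised and normalised them is not given in the sources used here, and log base 2 was inferred from the range of the values and from the scale of the folds the study prints. They were used as deposited. Gene symbols came from the platform annotation: of 36685 probe sets, 18511 had 1 symbol, 575 had several and 17599 were unnamed here. All 91 symbols equal those of RefSeq. Probe sets differ in brightness for the same RNA, and so no gene's level was set against another gene's.

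Members and gene lists were chosen with earlier results of these data known. The genes named are all that differed by at least 2-fold, the 4 highest and 4 lowest differences in each complex among those at or above the floor, the isoform pairs, the catalytic subunits and, of the other lists, up to 3 genes each way that differed by at least 1.5-fold. A few more (Nrf1, Gabpa, Yy1, Tfam, Ppargc1a and members below these limits) are named to account for the lists. The catalytic and accessory split, the list of cytosolic ribosomal proteins, the genes of matched mean signal, the other probe set of Ndufv3 and the analysis without copies were added after values had been seen. Folds against a value under the floor are bounds against that floor. Alternatives were median centring, quantile normalisation, means for medians, the mean of a gene's probe sets, values set to the floor and Ndufa4 in complex IV. The scripts that compute differences and counts were checked on made-up arrays with known shifts, which is no test of the differences themselves. A planned comparison of protein sequences was not analysed here. Scripts ran in Python 3.11.15 with pandas 2.3.3 and numpy 2.4.6, and figures were drawn with matplotlib 3.10.9. The number of arrays, 1 per group, limits the precision.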

Additional observations from a re-analysis of the deposited data

Results flagged for a closer look

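Among the 8 probe sets whose annotation gives several symbols, 1 of them a subunit's, 5 were at least 2-fold higher in SMiNs, with differences of 1.85, 1.82, 1.77, 1.49 and 1.21 on the log2 scale (3.61-, 3.53-, 3.40-, 2.80- and 2.32-fold). These 5 were picked out because they lie outside the comparisons above and have a higher signal in SMiNs than in C6 glioma. Of the other 3, 1 was equal on both arrays and the differences of the others were -0.60 and -0.96. No gene is named for them, because such a probe set reads more than 1 gene.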

How the results depend on the processing

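No paired analysis was possible because there was 1 array per group, and leaving out an array was not possible for the same reason. No median of a complex and no count changed its direction under any alternative run. The median of all 91 genes stayed between 0.41 and 0.71, the number at least 2-fold higher between 26 and 32, and the catalytic minus accessory median between -1.42 and -1.18. With means in place of medians, complex III was 0.61 and complex IV 0.29. Quantile normalisation gave -0.28 for complex II. With each value below the floor raised to it, complex III was 0.56 and 1 gene was 2-fold lower. Without copies, complex III was 0.46 and again 1 gene was 2-fold lower. The complex IV median was 0.01 after median centring. Under quantile normalisation 6 genes changed sign, none of them 2-fold different, and Ndufb10, Ndufb4l3 and Ndufb8 passed 2-fold. With the mean of a gene's probe sets, Cox6b1 (0.56) and Ndufv3 (0.58) no longer passed it. Median centring and quantile normalisation each moved the median of all named genes by -0.06. For these alternatives the cause was not tested.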
